A study of Arabidopsis thaliana with 15 samples.

Results

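The genes described here had higher transcript levels in Arabidopsis roots 8 h after the return of nitrogen, whether as nitrate or as ammonium. After 1.5 h any rise was below a set limit, which does not show that there was none. These genes were chosen by measured values. A probe set, the group of short probes that reports 1 transcript on the array, was a member where the group mean lay at least 0.8 log2 above the roots before supply after 8 h of nitrate and after 8 h of ammonium. It also had to lie less than 0.4 log2 above them at 1.5 h of each form and to have a highest group mean of at least 6 log2. Of 22746 probe sets, 27 met this rule, with COR27, which met it too, set aside. The annotation used here named 1 gene for 9 members and listed no gene for the other 18, which are given by probe set. It listed no gene for 8730 of all probe sets, so a member without a listed gene may still have a known one. The 4 changes from the roots before supply served as the rule, so they are given below as a description, without a test.

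Plants of accession Columbia-0 (Col-0) grew in hydroponic culture to growth stage 5.10, and all groups were kept without nitrogen for 26 h. Roots were taken just before supply, and 1.5 h and 8 h after nitrate or ammonium was given, each at 1 mM, with 3 biological replicates in each of 5 groups. Each of the 15 samples pooled the roots of at least 5 plants. The genotype and growth stage were the same in every group, and the only root group without resupplied nitrogen was that of the start. The counter-ions are not given in the sources used here. The supply of nitrogen at 8 h therefore cannot be told apart from the hours passed and from the time of day, and in pooled roots more cells of a type cannot be told apart from more RNA per cell.

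When nitrogen returns to a starved root, nitrate is sensed directly and switches on transport and assimilation genes within minutes, while ammonium acts largely through its assimilation into glutamine. Later responses follow from the new nitrogen status, from carbon use and from growth. Root transcripts also follow the circadian clock, a loop of morning and evening repressors that gives many genes a daily rhythm.

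Values are RMA expression values on a log2 scale, and differences are log2 differences ± their standard error in the limma fit, with 3 samples in each group. The sample medians of all probe sets ranged from 6.762 to 6.833, and r between replicates of the same group, over all probe sets, ran from 0.9935 to 0.9978. Of 15 root markers 3 had a named probe set, the root hair expansins EXPA7 and EXPA18 and the root beta-glucosidase PYK10, with group means from 9.93 to 12.89. Of 18 markers of green shoot tissue 2 had one, RCA and LHCB4.1, with group means from 5.88 to 6.78. The values carried no detection call, and a group mean under 5 log2 is treated here as not shown to be above background.

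In all 6 samples at 8 h the average of the late-rise members lay more than 1 log2 above the start. Averaged over the 27 members, the change from the roots before supply ran from 1.38 to 1.48 log2 in the 3 samples after 8 h of nitrate, and from 1.27 to 1.34 in those after 8 h of ammonium. At 1.5 h the averages were 0.14, 0.05 and 0.03 with nitrate and 0.05, −0.01 and 0.14 with ammonium. For all 27 members the lowest of the 6 values at 8 h lay above the highest of the 9 earlier values, which held for 1.67% of all probe sets. The rule favours such a gap, so nothing is read from this share. The gap ran from 0.03 log2 in AT4G08380 to 3.06 in PDF2.1.

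**Figure D1:**
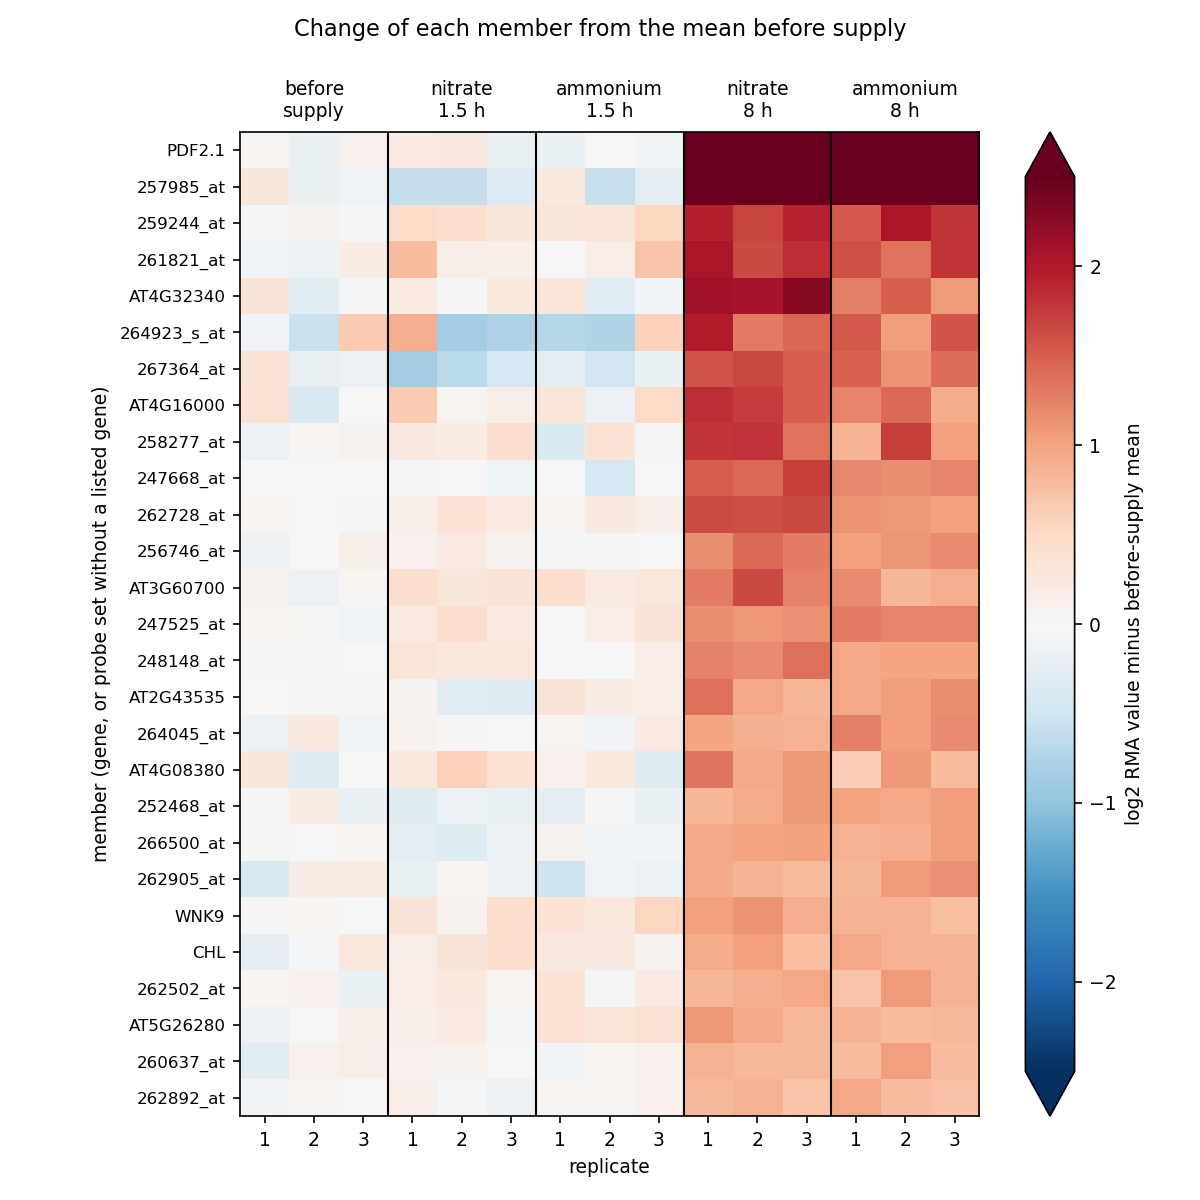
Heat map of the 27 members (vertical axis, ordered by the mean of their 8 h changes) in the 15 samples (horizontal axis, replicates 1 to 3 of each group). Colour gives the log2 RMA value minus the member's mean before supply, with values beyond 2.5 in the end colour. The 6 columns at 8 h are red for every member, and PDF2.1 and 257985_at are darkest.

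The members differed widely in size. The change after 8 h of nitrate ran from 0.80 to 3.33 log2 (median 1.27) and that after 8 h of ammonium from 0.81 to 4.19 (median 1.08), against medians of −0.02 and −0.03 for all probe sets. In 14 members both changes were at least 1 log2, and in 7 both were smaller than that. At 1.5 h, 9 members lay below the roots before supply with nitrate, 11 with ammonium and 7 with both. Levels before supply ran from 3.98 to 10.87 log2, and 3 members (PDF2.1, AT4G32340 and AT4G16000) began under 5.

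Small cysteine-rich peptides supplied the member with the largest change. PDF2.1 (AT2G02120) encodes a plant defensin, a family of small secreted peptides folded by disulfide bridges and known for antifungal activity. Its level was 4.05, 3.79 and 4.09 log2 before supply, 4.18, 4.21 and 3.79 after 1.5 h of nitrate, and 3.81, 3.98 and 3.90 after 1.5 h of ammonium. At 8 h it was 7.31, 7.27 and 7.34 with nitrate and 8.00, 8.70 and 7.81 with ammonium. All 9 earlier samples lay under the background mark and all 6 late samples far above it, and the ammonium samples did not overlap those with nitrate. The changes at 8 h were 3.33 ± 0.17 with nitrate and 4.19 ± 0.17 with ammonium, and no fold is given because the starting level was not shown to be above background.

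AT2G43535 encodes a small peptide of the defensin-like (knottin) class. It stood at 8.01, 7.98 and 8.03 log2 before supply, 8.11, 7.75 and 7.70 after 1.5 h of nitrate, and 8.33, 8.20 and 8.17 after 1.5 h of ammonium. At 8 h the levels were 9.38, 8.97 and 8.84 with nitrate and 8.97, 9.05 and 9.18 with ammonium. The forms gave means that differed by only −0.0007 log2, and their samples overlapped.

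Among proteins of the cell wall and of signalling, AT4G08380 encodes a proline-rich, extensin-like protein, extensins being structural glycoproteins of the wall. Its values were 8.72, 8.13 and 8.44 log2 before supply, 8.67, 9.01 and 8.79 after 1.5 h of nitrate, and 8.54, 8.68 and 8.13 after 1.5 h of ammonium. They were 9.78, 9.37 and 9.52 after 8 h of nitrate and 9.05, 9.51 and 9.22 after 8 h of ammonium. The lowest late sample thus lay just above the highest early nitrate sample. The 1.5 h nitrate change of this gene, 0.40 after rounding, was the nearest of all members to the early limit.

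WNK9 (AT5G28080) encodes a kinase of the WNK family, serine/threonine kinases that lack the usual catalytic lysine. It measured 6.70, 6.81 and 6.76 log2 before supply, 7.08, 6.85 and 7.18 after 1.5 h of nitrate, and 7.10, 7.02 and 7.29 after 1.5 h of ammonium. At 8 h it measured 7.79, 7.89 and 7.66 with nitrate and 7.62, 7.64 and 7.51 with ammonium. Every sample at 1.5 h already lay above those before supply, and WNK9 had the largest early ammonium change among the members (0.38). Its changes at 8 h were 1.02 ± 0.09 with nitrate and 0.83 ± 0.09 with ammonium (2.03-fold and 1.77-fold).

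AT5G26280 encodes a protein with a TRAF-like (MATH) domain, a fold that binds other proteins. Its levels were 9.51, 9.66 and 9.76 log2 before supply, 9.77, 9.86 and 9.61 after 1.5 h of nitrate, and 10.01, 9.95 and 10.01 after 1.5 h of ammonium. They reached 10.73, 10.59 and 10.45 after 8 h of nitrate and 10.49, 10.42 and 10.46 after 8 h of ammonium. It had the highest level of the named members throughout and the smallest change after 8 h of ammonium among all 27 (0.81 ± 0.09).

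CHL (AT3G47860) encodes the chloroplastic lipocalin, a plastid protein that protects thylakoid lipids under oxidative stress. It stood at 5.43, 5.61 and 5.93 log2 before supply, 5.81, 5.97 and 6.07 after 1.5 h of nitrate, and 5.88, 5.88 and 5.75 after 1.5 h of ammonium. At 8 h it stood at 6.58, 6.68 and 6.41 with nitrate and 6.62, 6.53 and 6.504 with ammonium. The late groups overlapped each other and lay clear of all earlier samples. Of the shoot markers, RCA changed by −0.03 ± 0.10 and −0.19 ± 0.10 after 8 h of nitrate and ammonium (limma adjusted p = 0.90 and 0.24), and LHCB4.1 by 0.20 ± 0.11 and 0.34 ± 0.11 (adjusted p = 0.24 and 0.044). Their part in the CHL values was not tested.

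The other named members have a tetratricopeptide-repeat protein and genes of less certain role among them. AT4G32340 encodes the tetratricopeptide-repeat protein, whose repeats commonly bind other proteins. It measured 5.21, 4.64 and 4.85 log2 before supply, 5.10, 4.86 and 5.14 after 1.5 h of nitrate, and 5.199, 4.64 and 4.83 after 1.5 h of ammonium. At 8 h it measured 6.99, 6.96 and 7.18 with nitrate and 6.16, 6.40 and 5.97 with ammonium. The 3 nitrate samples lay above all 3 ammonium samples, the reverse of the order seen for PDF2.1.

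AT4G16000 was at 4.95, 4.20 and 4.60 log2 before supply, 5.24, 4.65 and 4.72 after 1.5 h of nitrate, and 4.88, 4.44 and 5.05 after 1.5 h of ammonium. It was at 6.43, 6.33 and 6.07 after 8 h of nitrate and 5.80, 6.005 and 5.51 after 8 h of ammonium. Nearly all its earlier values lay near or under the background mark. AT3G60700 was at 5.63, 5.39 and 5.58 before supply, 5.93, 5.81 and 5.85 after 1.5 h of nitrate, and 5.95, 5.74 and 5.79 after 1.5 h of ammonium. It was at 6.84, 7.18 and 6.78 after 8 h of nitrate and 6.72, 6.37 and 6.44 after 8 h of ammonium, again higher with nitrate.

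**Figure D2:**
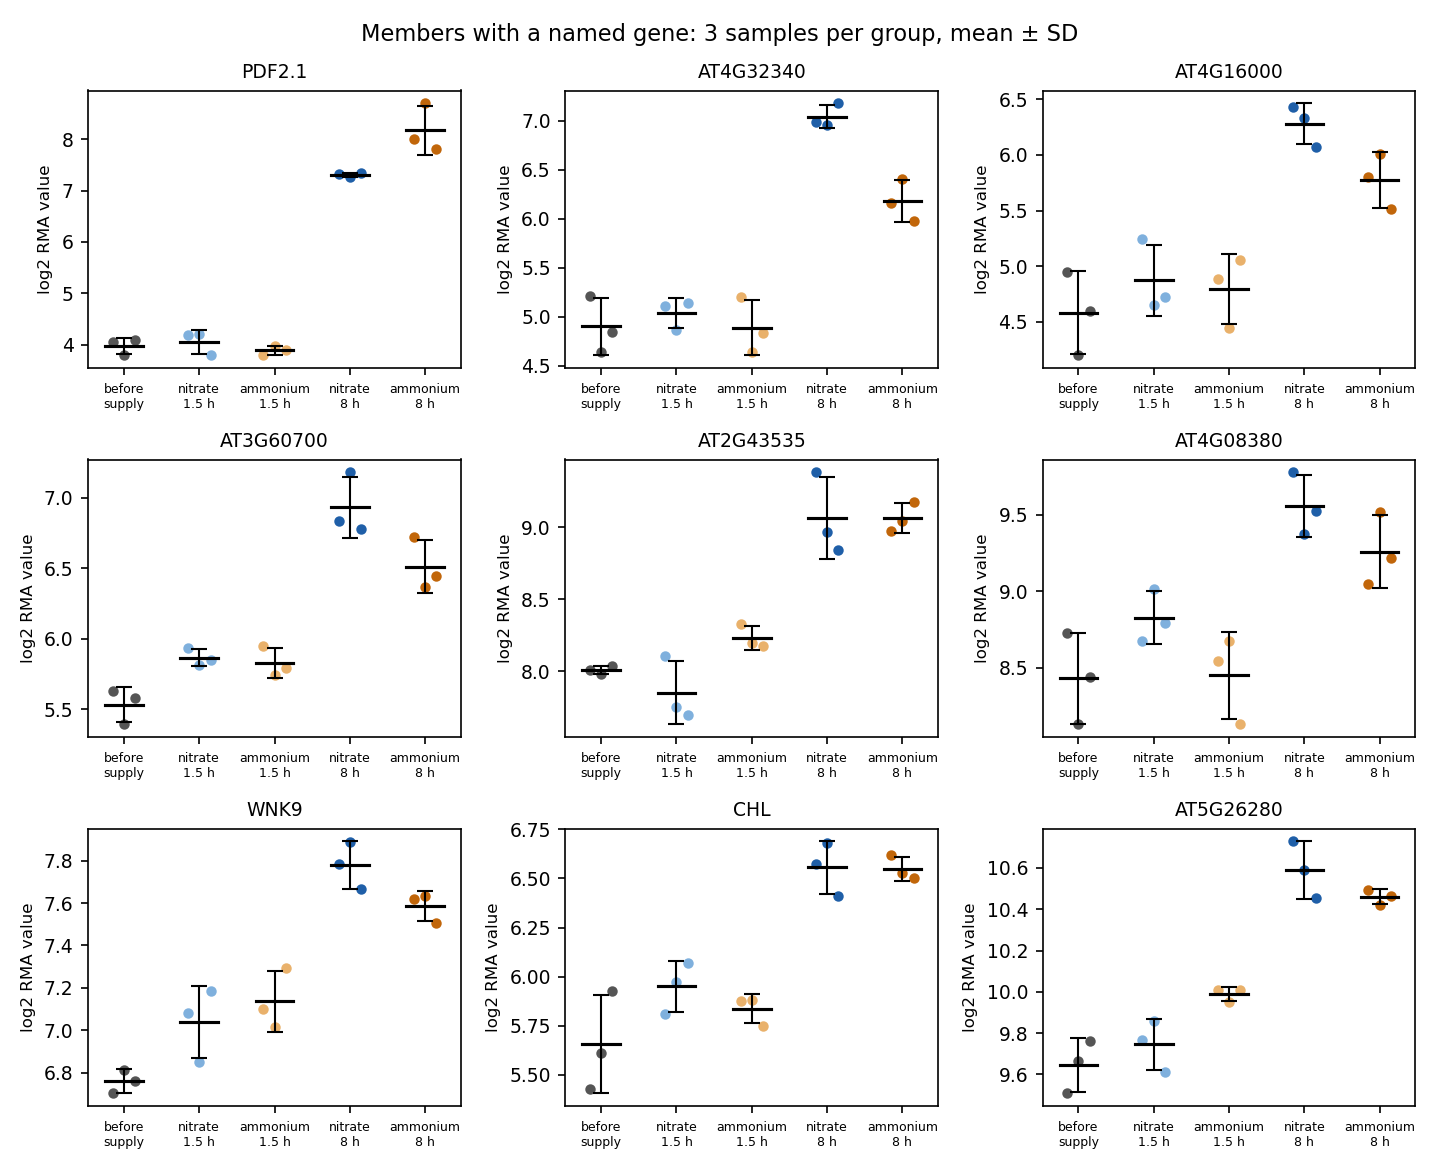
Log2 RMA values (vertical axes, each with its own range) of the 9 members with a named gene in the 5 groups (horizontal axes). Points are samples, the long bar is the group mean and the whiskers are 1 SD. Within the 8 h groups PDF2.1 is higher with ammonium, AT4G32340 and AT3G60700 are higher with nitrate, and CHL and AT2G43535 overlap.

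Of the members without a listed gene, 257985_at came next to PDF2.1 in size. It measured 5.77, 5.33 and 5.38 log2 before supply, 4.90, 4.90 and 5.16 after 1.5 h of nitrate, and 5.73, 4.91 and 5.27 after 1.5 h of ammonium. At 8 h it measured 8.77, 8.56 and 8.58 with nitrate and 8.86, 8.93 and 8.74 with ammonium. Its nitrate samples at 1.5 h all lay below those before supply, and its 8 h changes were 3.14 ± 0.16 and 3.35 ± 0.16 (8.83-fold and 10.2-fold). 259244_at had 5.65, 5.76 and 5.62 before supply, 6.13, 6.07 and 5.96 after 1.5 h of nitrate and 5.95, 5.99 and 6.21 after 1.5 h of ammonium, then 7.61, 7.36 and 7.60 after 8 h of nitrate and 7.21, 7.70 and 7.45 after 8 h of ammonium. It stood higher than at the start in every sample at 1.5 h, just inside the early limit.

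A further 3 such members differed between the forms. 262728_at had 8.39, 8.32 and 8.27 log2 before supply, 8.46, 8.66 and 8.53 after 1.5 h of nitrate and 8.40, 8.55 and 8.46 after 1.5 h of ammonium, then 9.96, 9.93 and 9.97 after 8 h of nitrate and 9.45, 9.41 and 9.36 after 8 h of ammonium. Its late samples lay within 0.1 log2 of each other inside each form and did not overlap between the forms. 247668_at had 5.96, 5.98 and 5.99 before supply, 5.94, 5.96 and 5.86 after 1.5 h of nitrate and 5.99, 5.53 and 5.96 after 1.5 h of ammonium, then 7.49, 7.39 and 7.70 after 8 h of nitrate and 7.17, 7.14 and 7.19 after 8 h of ammonium. 248148_at had 6.02, 6.08 and 6.06 before supply, 6.36, 6.29 and 6.33 after 1.5 h of nitrate and 6.04, 6.07 and 6.22 after 1.5 h of ammonium, then 7.30, 7.23 and 7.43 after 8 h of nitrate and 7.03, 7.03 and 7.05 after 8 h of ammonium. In both, all late nitrate samples were above all late ammonium samples. The remaining 13 had mean levels from 5.12 to 10.87 before supply and changes from 0.80 to 1.85 after 8 h of nitrate and from 0.83 to 1.58 after 8 h of ammonium.

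The edges of the rule were crowded at 8 h. The smallest nitrate changes inside were 0.80 (262892_at), 0.82 (260637_at) and 0.85 (262905_at). The nearest named genes outside, which met the other conditions, were AT5G04080 (0.67), AT3G20850 (0.54) and the subtilase gene ATSBT5.2 (0.53). The smallest ammonium changes inside were 0.81 (AT5G26280), 0.83 (262892_at) and 0.83 (WNK9), and the nearest outside were AT5G23380 (0.74), AT5G01750 (0.69) and the methionine aminopeptidase gene MAP1C (0.65). In all, 40 probe sets missed the rule by the 8 h nitrate limit alone and 37 by the 8 h ammonium limit alone.

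Fewer probe sets failed by a single early limit alone, but 147 that met the 8 h and level limits failed both early limits. After 1.5 h of nitrate the members nearest the limit were AT4G08380, 259244_at and 261821_at (0.40, 0.38 and 0.35). AT1G53035, AT5G04730 and AT3G52870 lay outside it (0.42, 0.44 and 0.62), of 11 probe sets that failed by this limit alone. After 1.5 h of ammonium WNK9, 259244_at and AT5G26280 were nearest inside (0.38, 0.37 and 0.34). Outside were AT5G57655, a xylose isomerase gene (0.50), ATL8, a RING-type ubiquitin ligase gene (0.51), and AT2G15960 (0.54), of 12 that failed by this limit alone. On the level limit, 262502_at, AT4G16000 and CHL were nearest inside, with highest group means of 6.03, 6.28 and 6.56. AT1G17665 and AT4G16146 were nearest outside (5.60 and 5.48), of 5.

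Counted with COR27 and the level limit but without the early limits, 198 probe sets reached 0.8 log2 at 8 h with both forms. Of these, 147 were already at least 0.4 higher at 1.5 h with both. Another 11 were that much higher early with nitrate alone and 12 with ammonium alone, which leaves the 27 members and COR27. These counts come from thresholds, and the difference between the sets was not tested.

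**Figure D3:**
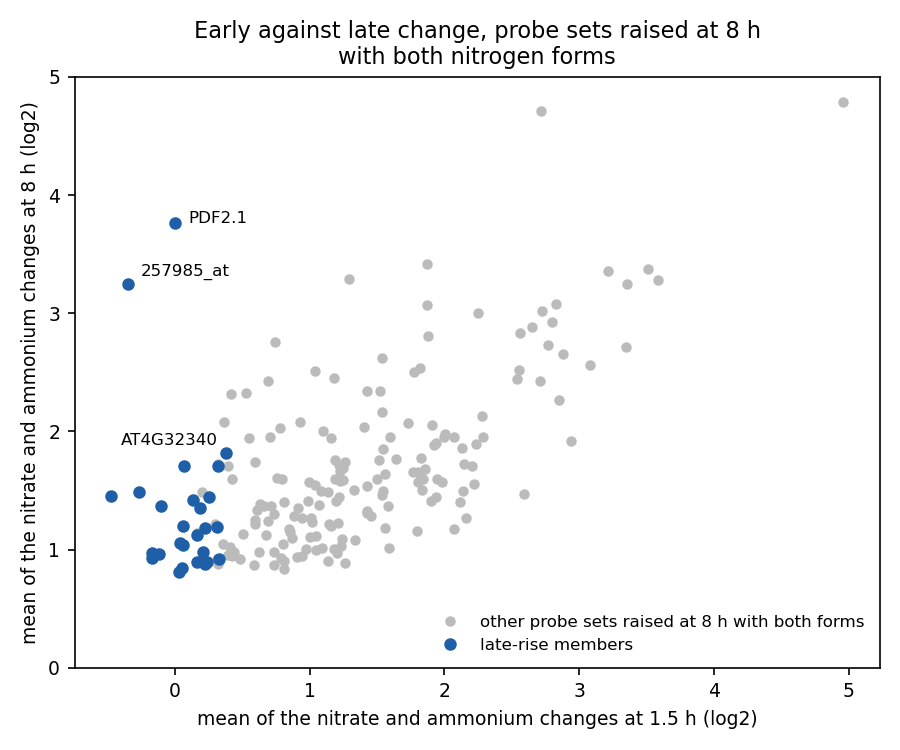
Mean of the nitrate and ammonium changes at 1.5 h (horizontal axis) against that at 8 h (vertical axis), both in log2, for probe sets at least 0.8 log2 higher at 8 h with both forms. All had a highest group mean of at least 6 log2, and COR27 is not shown. Blue points are the 27 members and grey points the others. PDF2.1 and 257985_at stand apart from the other members, with late changes above 3 log2 and early changes near or below 0.

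Whether the late level depended on the form of nitrogen was asked by comparing the forms directly. The rule did not use this difference, but it set a floor on both of the 8 h changes that enter it. The same values thus chose the members, and nothing is read from the shares of members set beside those of all probe sets. At 8 h, limma called 6 of the 27 members (22.2%) at an adjusted p below 0.05, against 10.7% of all probe sets. Nitrate gave the higher level in 5 of the 6 (AT4G32340, 262728_at, AT3G60700, 247668_at and 248148_at; 5.4% of all probe sets) and ammonium in 1 (PDF2.1; 5.28%). Called or not, 18 members had the higher mean with nitrate and 9 with ammonium, with a median difference of 0.13 log2 against 0.01 for all probe sets. In 11 members the 3 nitrate and 3 ammonium samples did not overlap, against 27.7% of all probe sets.

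The largest differences ran in opposite directions. AT4G32340 was higher with nitrate by 0.87 ± 0.16 log2 (1.82-fold, adjusted p = 0.0014 in limma, 95% confidence interval 0.53 to 1.201). PDF2.1 had a difference of −0.86 ± 0.17 log2, a level 1.82-fold higher with ammonium (adjusted p = 0.0033, interval −1.23 to −0.49), which came to −0.59 without ammonium 8 h replicate 2. 262728_at was higher with nitrate by 0.54 ± 0.07 (1.46-fold, adjusted p = 4.21e-05). These 3 calls held when any 1 of the 15 samples was left out.

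The other called differences were smaller, and each call was lost in some fit that left out a single sample. AT3G60700 was higher with nitrate by 0.42 ± 0.11 (limma adjusted p = 0.023), a call lost without nitrate 8 h replicate 2 (adjusted p = 0.12) or ammonium 8 h replicate 2 or 3 (0.11 and 0.088) and when the compared groups alone were fitted (0.074). 247668_at was higher by 0.36 ± 0.10 (adjusted p = 0.036), and its call was lost without any of 5 of the late samples, nitrate 8 h replicate 2 being the exception (adjusted p up to 0.17). 248148_at was higher by 0.29 ± 0.07 (adjusted p = 0.011), lost without nitrate 8 h replicate 3 (0.063).

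For the other named members no difference between the forms at 8 h was called by limma. The interval of the difference was −0.27 to 0.27 log2 for AT2G43535, −0.23 to 0.24 for CHL, −0.05 to 0.31 for AT5G26280 and −0.01 to 0.39 for WNK9. It was −0.06 to 0.66 for AT4G08380 and 0.07 to 0.94 for AT4G16000, which had the largest difference of these (0.51 ± 0.20, adjusted p = 0.15, and 0.047 when the compared groups alone were fitted). For the most changed members without a gene it was −0.55 to 0.14 (257985_at) and −0.17 to 0.31 (259244_at). Differences of up to these bounds therefore remain possible.

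**Figure D4:**
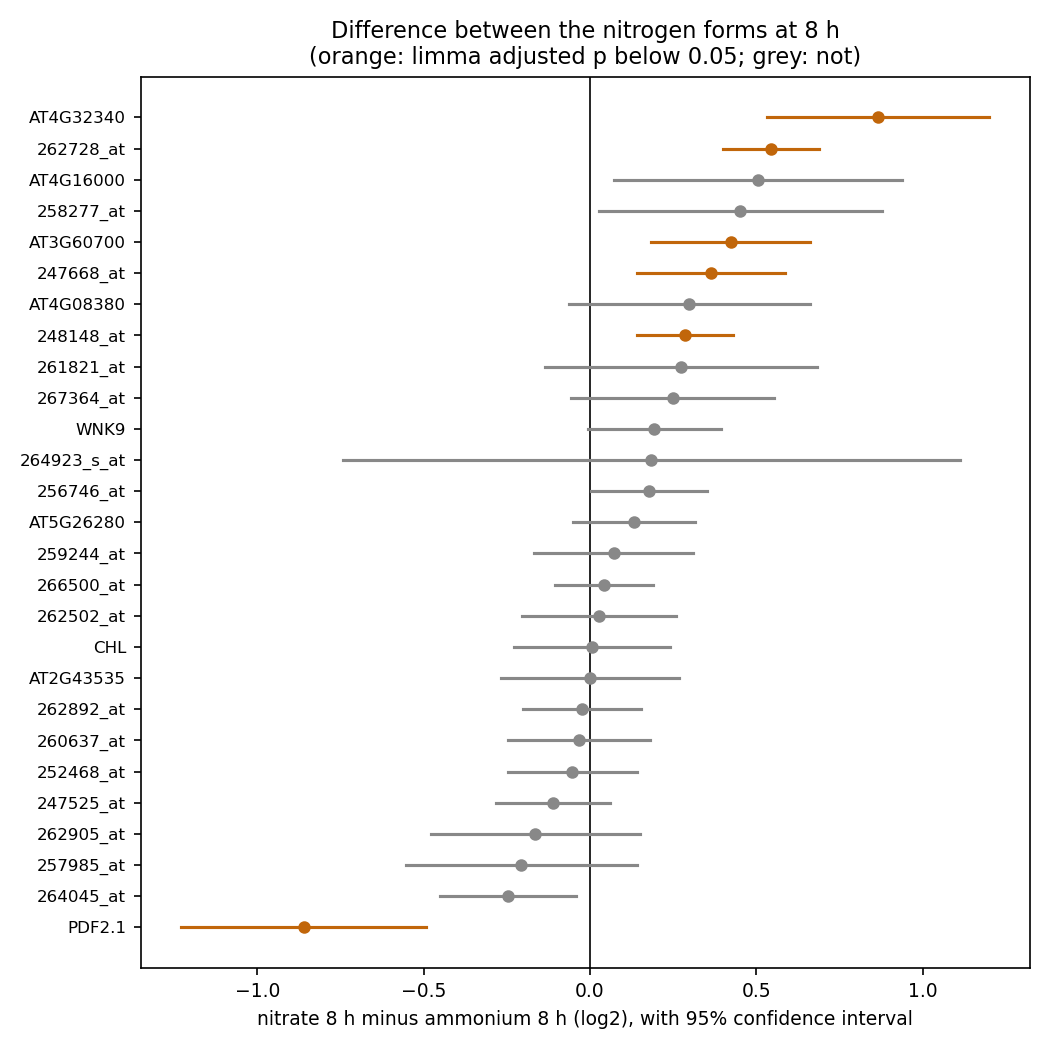
Level after 8 h of nitrate minus that after 8 h of ammonium in log2 (horizontal axis) for the 27 members (vertical axis), with points for the fitted difference and lines for its 95% confidence interval. Orange marks the 6 members called by limma. PDF2.1 is the 1 called member to the left of 0.

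The rule capped the change of each form at 1.5 h, so it also limited the difference between the forms at that time, and nothing is read from the shares that follow. Limma called 0 of the 27 members between nitrate and ammonium at 1.5 h, where it called 10.7% of all probe sets, and 6 members had an unadjusted p below 0.05. In 5 members the nitrate and ammonium samples did not overlap at 1.5 h, and the same held for 29.7% of all probe sets. The lowest adjusted p was that of 248148_at (0.22 ± 0.07 higher with nitrate, adjusted p = 0.053). The largest differences were those of AT2G43535, lower with nitrate at −0.38 ± 0.13 (adjusted p = 0.068), and of AT4G08380, at 0.38 ± 0.17 (adjusted p = 0.20). Fits without single samples called 0 or 1 member here. A replicate block, array weights, a variance trend with robust estimation and the level filter each called 2 or 3. AT2G43535 was called, for example, with a replicate block (adjusted p = 0.042), and when only probe sets with a highest group mean of at least 6 were tested (0.048). AT5G26280 was at −0.245 ± 0.09 (adjusted p = 0.089) and PDF2.1 at 0.17 ± 0.17 (adjusted p = 0.64).

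The step from 1.5 h to 8 h was then compared between the forms, as the nitrate step minus the ammonium step, which draws in part on the same capped values. Limma called 2 of the 27 members (7.41%), 1 in each direction, against 4.5% of all probe sets (2.28% higher and 2.22% lower). The step of PDF2.1 was smaller with nitrate by a difference of −1.03 ± 0.24 log2 (adjusted p = 0.025), a call lost without nitrate 1.5 h replicate 1 or 2, ammonium 1.5 h replicate 1 or nitrate 8 h replicate 2 (adjusted p = 0.058 to 0.064). The mean level of PDF2.1 at 1.5 h, 4.06 with nitrate and 3.89 with ammonium, lay under the background mark. Its difference in steps therefore rests mainly on the difference at 8 h given above. The step of 262728_at was larger with nitrate by 0.47 ± 0.10 (adjusted p = 0.011), and that call held without any 1 sample. AT4G32340 had a difference of 0.72 ± 0.22 (adjusted p = 0.084). Over all probe sets 50.7% of the calls in this contrast were higher, and 64% after samples were centred on their medians.

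The defensin family around PDF2.1 was examined next. Of 13 listed defensin genes 10 had a named probe set, and 9 of these were not members. PDF2.2 (AT2G02100, LCR69 in RefSeq) and PDF2.3 (AT2G02130, LCR68) lie near PDF2.1 on chromosome 2, on either side of it. PDF2.2 rose by 0.55 ± 0.11 log2 after 8 h of ammonium (limma adjusted p = 0.0016) and stood at 0.30 ± 0.11 with nitrate (adjusted p = 0.054). PDF2.3 rose by 0.43 ± 0.08 with ammonium (adjusted p = 0.000792) and by 0.26 ± 0.08 with nitrate (adjusted p = 0.020). Both, like PDF2.1, had the higher mean with ammonium, but their differences between the forms were not called (adjusted p = 0.18 and 0.21).

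The levels behind these changes were high throughout. PDF2.2 measured 11.03, 10.87 and 10.96 log2 before supply, 11.36, 11.29 and 11.11 after 8 h of nitrate and 11.52, 11.65 and 11.34 after 8 h of ammonium. PDF2.3 measured 10.86, 10.97 and 10.82 before supply, 11.22, 11.15 and 11.05 after 8 h of nitrate, and 11.39, 11.36 and 11.17 after 8 h of ammonium. For both genes each late sample lay above all samples before supply. PDF2.6 (AT2G02140), the next gene along the same stretch, had group means from 3.51 to 3.70 and was not called.

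Across the 9 defensin genes outside the set, 2 were called higher after 8 h of nitrate (PDF2.3 and PDF2.4) and 2 after 8 h of ammonium (PDF2.2 and PDF2.3), and none lower. The background was 8.93% of all probe sets higher with nitrate and 7.72% with ammonium. The medians of the 9 were 0.04 and 0.08 log2, against −0.02 and −0.03 for all probe sets. PDF2.4 was at 3.17 to 3.44 and not shown to be above background. The nitrate count was 0 without replicate 3 of the roots before supply, 1 without replicate 2 of them or nitrate 8 h replicate 1 or 2, and 4 with a replicate block.

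Genes beside the named members on the chromosomes were examined in the same way. Of the 54 protein-coding genes within 3 places of the 9 named members, in the gene order of RefSeq assembly TAIR10.1, 28 had a named probe set and none reached 0.8 log2 with both forms. Their medians at 8 h were 0.08 with nitrate and 0.04 with ammonium. After 8 h of nitrate 2 of the 28 were called higher and 1 lower, against 8.93% and 11.7% of all probe sets. After 8 h of ammonium 3 were called higher and 1 lower, against 7.72% and 9.91% of all probe sets. Beside PDF2.2 and PDF2.3, the third that rose was AT2G43550, another defensin-like gene 2 places from AT2G43535, by 0.73 log2 with nitrate (limma adjusted p = 6.02e-05) and 0.32 with ammonium (adjusted p = 0.040).

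Since time of day moves with the late harvest, genes of the circadian clock were set beside the members. Of 32 listed clock genes 5 had a named probe set, and 3 were called higher after 8 h of nitrate and of ammonium, against the same 8.93% and 7.72% of all probe sets. They were COR27, COR28 (AT4G33980) and GI. The median of the 5 was 0.26 with nitrate and 0.52 with ammonium. COR27 met the rule itself, so its values are a description and the rule favoured its calls at 8 h. The count and the medians include COR27, so nothing is read from them beside the values of all probe sets. The called clock genes that the rule did not select were COR28 and GI, while RVE6 and TIC were not called. The part of the clock in the members' levels was not tested.

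COR27 and COR28 encode a related pair of cold- and light-responsive regulators that repress clock genes. COR27 was at 3.98, 3.95 and 4.34 log2 before supply, 3.78, 3.67 and 3.73 after 1.5 h of nitrate and 4.11, 3.94 and 4.14 after 1.5 h of ammonium, then 6.76, 6.70 and 6.43 after 8 h of nitrate and 6.42, 6.86 and 6.94 after 8 h of ammonium. Its means at 1.5 h were not above the start while those at 8 h were, and its late groups overlapped. COR28 changed by 2.54 ± 0.12 after 8 h of nitrate and 2.37 ± 0.12 after 8 h of ammonium (limma adjusted p = 3.77e-10 and 2.43e-09), but it had already risen at 1.5 h, by 1.29 ± 0.12 with nitrate and 1.06 ± 0.12 with ammonium (adjusted p = 1.52e-06 and 2.03e-05).

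GI (GIGANTEA), an evening-phased clock gene, rose by 0.26 ± 0.08 after 8 h of nitrate and 0.52 ± 0.08 after 8 h of ammonium (limma adjusted p = 0.026 and 0.000239). It had also risen after 1.5 h of nitrate, by 0.39 ± 0.08 (adjusted p = 0.0026). COR28 was thus called with both forms at 1.5 h and GI with nitrate. RVE6 and TIC were not called in any of these 4 comparisons, with changes between −0.22 and 0.09. The background at 1.5 h was 5.97% of probe sets higher with nitrate and 5.97% with ammonium.

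**Figure D5:**
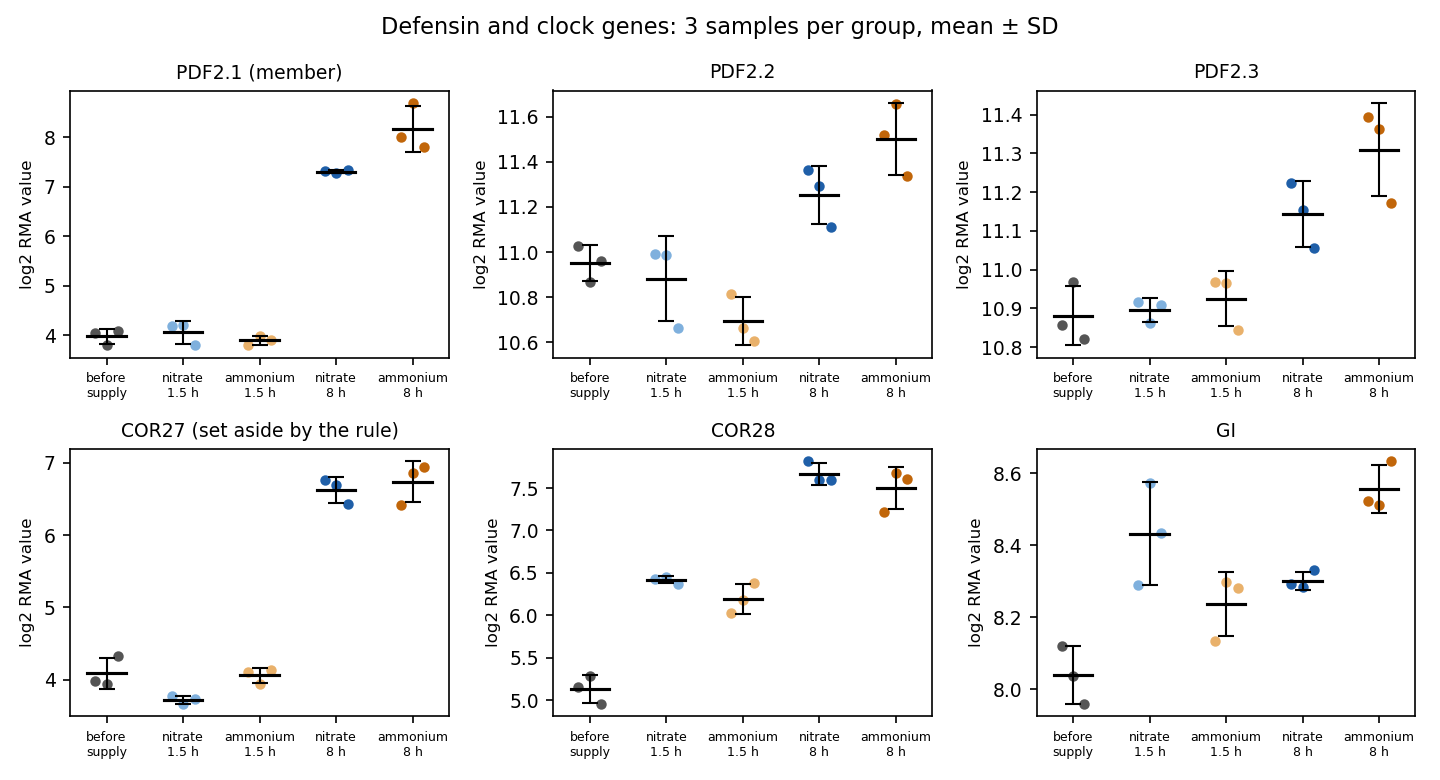
Log2 RMA values (vertical axes, each with its own range) of 3 neighbouring defensin genes and 3 clock genes in the 5 groups (horizontal axes), with points for samples, long bars for means and whiskers for 1 SD. PDF2.1 and COR27 are near 4 until 1.5 h and over 2 log2 higher at 8 h. PDF2.2 and PDF2.3 shift by at most 0.55, and COR28 is already higher at 1.5 h.

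The root markers were also higher at 8 h, and in part already at 1.5 h. At 1.5 h EXPA18 rose with nitrate by 0.41 ± 0.10 log2 (limma adjusted p = 0.015) and PYK10 with ammonium by 0.27 ± 0.08 (adjusted p = 0.031). PYK10 changed by 0.58 ± 0.08 and 0.61 ± 0.08 and EXPA18 by 0.47 ± 0.10 and 0.44 ± 0.10 after 8 h of nitrate and ammonium, and all 4 were called by limma (adjusted p no higher than 0.00736). EXPA7 rose by 0.38 ± 0.12 with nitrate (adjusted p = 0.028) and stood at 0.08 ± 0.12 with ammonium (adjusted p = 0.71). The rule required at least 0.8 log2 of each member at 8 h, so the sizes of these shifts are not compared with the members. The part of the shifts in the members' values was not tested.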

How the data were processed

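RNA from 15 Arabidopsis root samples was hybridised to ATH1 arrays, and the deposited values are log2 expression values made by the authors with RMA, per the labels. RMA corrects background, quantile-normalizes and summarises probes, so it damps differences of dim probe sets and assumes alike distributions. No detection calls or scanner files were analysed here, and the number of arrays limits precision. Limma 3.58.1 in R 4.3.3 fitted 5 group means over the 22746 probe sets, with empirical Bayes moderation and Benjamini-Hochberg adjustment at 0.05. The fit was tested on simulated data. Of the probe sets, 13513 had 1 gene listed in the annotation used here, 503 several and 8730 none, and 13436 were matched to RefSeq. Genes of the fixed lists without a named probe set in that annotation were not examined.

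The members, gene lists and tests were chosen with earlier results of these data known. The lists covered the clock, defensins, ammonium assimilation, root markers and shoot markers. None of the 14 ammonium assimilation genes had a named probe set. All named members were given in full, with up to 5 members without a gene, a limit that took precedence over the 12 largest members. Genes nearest each threshold and called list genes were also named. Alternatives covered normalization, filters, weights, variance estimation, a replicate block and leaving out each sample. The main fit did not pair samples by replicate number.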

Additional observations from a re-analysis of the deposited data

Results flagged for a closer look

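At 8 h limma called a difference between nitrate and ammonium in 6 members. The rule had set a floor on both 8 h changes, so the same values chose the members. The calls of AT3G60700, 247668_at and 248148_at were each lost in some fit that left out a single sample. The nitrate level minus the ammonium level was 0.87 log2 for AT4G32340, 0.54 for 262728_at, 0.42 for AT3G60700, 0.36 for 247668_at, 0.29 for 248148_at and −0.86 for PDF2.1. The step from 1.5 h to 8 h, which draws on the same 8 h values, was called different between the forms in 2 of these 6 members. The difference was 0.47 for 262728_at and −1.03 for PDF2.1. The 1.5 h levels of PDF2.1 lay under the background mark, and its call held in 11 of the 15 fits without a single sample. Groups of 3 samples are too small for the criterion used for single outlying samples.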

How the results depend on the processing

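A threshold of 0.7 log2 at 8 h gave 42 members, all 27 among them, and one of 1 gave 14. Leaving out each sample gave 24 to 32 members, and 16 of the 27 met the rule every time. The replicate numbers were checked for pairing: deviations of same-numbered samples correlated at −0.162 to 0.369 over 30 pairs (median 0.092, 14 above 0.1). Samples of different numbers were not compared, so this check cannot decide whether the numbers pair the samples. For the forms at 1.5 h, the members called went from 0 to 2 with a replicate block, 3 with array weights, 2 with a variance trend and robust estimation, 3 with a highest group mean of at least 6, and 0 to 1 without single samples. The defensin count at 8 h of nitrate, added after the data were seen, went from 2 to 4 with the replicate block and 0 to 3 without single samples. Calls of the difference in steps went from 1023 to 1607 with array weights and ran from 690 to 1440 without single samples, with 1 to 4 members called. Median centring moved the higher share from 50.7% to 64%. At 8 h, 4 to 6 members were called between the forms without single samples. Differences near 0 changed sign: AT2G43535 was 0.0276 after median centring and −0.16 to 0.11 without single samples, CHL −0.0543 to 0.0787 and 259244_at −0.0527 to 0.195. The cause was not tested. Of 506 alternative values for 23 named results, 467 kept direction and call, 14 lost the call, 16 gained it and 9 changed sign. No detection call was used, so changes from levels under 5 log2 have no reliable size.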

Other observations

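The member with the largest standard error, 264923_s_at, was chosen for mention after its values were seen. It measured 8.30, 7.84 and 9.04 log2 before supply, 9.30, 7.55 and 7.63 after 1.5 h of nitrate, and 7.69, 7.65 and 8.97 after 1.5 h of ammonium. At 8 h it measured 10.38, 9.70 and 9.84 with nitrate and 9.94, 9.45 and 9.98 with ammonium, so the late samples all lay above the early ones but by only 0.14 log2.

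GI was the clock gene whose step from 1.5 h to 8 h differed between the forms, at −0.45 ± 0.11 log2 for nitrate minus ammonium (limma adjusted p = 0.031). Its means at 1.5 h and 8 h were 8.433 and 8.302 with nitrate and 8.24 and 8.56 with ammonium.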
